A study of Mus musculus with 2 samples.

Results

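Cebpa, Cebpb, Cebpd and Cebpg encode transcription factors of the C/EBP family, Stat3 encodes a cytokine-activated transcription factor, and Socs3 encodes an inhibitor of cytokine signalling. These 6 genes, of 31053 in the deposited count matrix, were taken by name and followed in every kept cell. The cells are corneal epithelial cells of the CycB1-GFP genotype, a reporter mouse whose cells fluoresce green while they make Cyclin B1 in the cell cycle. Live, DAPI-stained suspensions were sorted for GFP-positive cells only, so the data hold no GFP-negative cells to set beside them. The labels give 1 group of 2 replicates, all CycB1-GFP and with no treatment. The labels do not state how many mice were used, or their age and sex. Barcodes carry 1 of 2 suffixes, called library 1 and library 2 below, and which suffix belongs to which replicate is not given.

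C/EBP proteins bind DNA as dimers through a basic leucine zipper. C/EBPα and C/EBPβ take part in keratinocyte differentiation in the epidermis, C/EBPδ is known from human limbal epithelial stem cells as a regulator of self-renewal and the cell cycle, and C/EBPγ lacks a strong activation domain and acts as a dimer partner of the others. STAT3 is phosphorylated by JAK kinases when cytokines of the interleukin 6 family bind receptors that contain gp130. SOCS3 is a classical STAT3 target whose product binds gp130 and JAK and shuts the signal off. The limbus, the rim between cornea and conjunctiva, holds the stem cells of the corneal epithelium, and Krt15 marks its basal cells. Krt12 is the keratin of the differentiated corneal epithelium. Gpha2, a glycoprotein hormone subunit, marks a subset of mouse limbal stem cells.

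In GRCm38 (GENCODE M21), Cebpa lies at chr7:35119293-35121928, Cebpb at chr2:167688915-167690418 and Cebpd at chr16:15887286-15891031, each on the plus strand and with a single exon in its first listed transcript. Cebpg lies on the minus strand at chr7:35046422-35056573, Socs3 on the minus strand at chr11:117966079-117970047 and Stat3 on the minus strand at chr11:100885098-100939540. Cebpb overlaps Tmem189 (737 UMIs over all barcodes, before cells were filtered), Cebpd overlaps Spidr (711 UMIs) and Stat3 overlaps Stat5a (158 UMIs), all on the opposite strand. A UMI, or unique molecular identifier, counts captured RNA molecules and not PCR copies. Whether the counting used strand is not stated, so a part of these UMIs could belong to the overlapping gene.

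RefSeq promoter windows of GRCm38.p6, 250 bases up to the transcription start, were found for 5 of the 6 genes; Cebpd had no entry. Each ends at the RefSeq start, and the Socs3 window lies inside the GENCODE span given above, whose 5′ end is further upstream. The windows of Socs3, Cebpa and Cebpb are shown because Socs3 is the STAT-responsive gene of the set and because Cebpa and Cebpb differed in opposite directions between the cell classes below. They are given 5′ to 3′ on the strand of the gene, at chr11:117969367-117969616 (minus), chr7:35119043-35119292 (plus) and chr2:167688665-167688914 (plus), and capitals mark a match to the STAT motif TTCNNNGAA.
Socs3: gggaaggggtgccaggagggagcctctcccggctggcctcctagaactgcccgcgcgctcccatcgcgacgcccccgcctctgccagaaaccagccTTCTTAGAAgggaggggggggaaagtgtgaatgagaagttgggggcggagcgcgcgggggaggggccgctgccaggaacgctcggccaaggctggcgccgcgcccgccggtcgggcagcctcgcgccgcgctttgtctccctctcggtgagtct
Cebpa: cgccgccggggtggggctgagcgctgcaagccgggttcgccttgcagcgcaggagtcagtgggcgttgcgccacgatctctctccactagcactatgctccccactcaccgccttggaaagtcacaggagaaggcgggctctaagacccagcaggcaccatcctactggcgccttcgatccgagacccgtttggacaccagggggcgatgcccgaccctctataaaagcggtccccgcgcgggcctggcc
Cebpb: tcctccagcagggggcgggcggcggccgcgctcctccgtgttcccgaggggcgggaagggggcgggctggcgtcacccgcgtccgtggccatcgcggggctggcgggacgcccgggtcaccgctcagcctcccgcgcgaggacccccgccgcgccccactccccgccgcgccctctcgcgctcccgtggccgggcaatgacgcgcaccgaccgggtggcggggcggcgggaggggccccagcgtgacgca
The Socs3 window held 1 TTCNNNGAA match, which begins 154 bases before the RefSeq start. The other 4 windows (Cebpa, Cebpb, Cebpg and Stat3) held none, and 7.02% of 32851 windows of this length in the table held at least 1, on either strand. The C/EBP motif TTGCNNAA was in none of the 5 windows and in 9.56% of all windows. The stricter STAT motif TTCCNGGAA, which is a subset of TTCNNNGAA, was in none of the 5 and in 0.913% of all. Sequence upstream of the GENCODE 5′ end of Socs3 was not searched for any motif, so these results do not cover it.

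The matrix had 3458 barcodes (19001107 UMIs) in library 1 and 3294 (18030874 UMIs) in library 2. Cells with at least 500 genes and under 20% mitochondrial UMIs numbered 3187 and 3001, with medians of 5571 and 5886 UMIs, and 5 barcode sequences occurred in both libraries. The share of Krt12 in the sum of Krt12 and Krt15 UMIs put cells with at least 5 such UMIs into 4 classes. Krt15-dominant cells, with a share under 0.4, were split into Gpha2+ cells (at least 2 Gpha2 UMIs; 404 in library 1 and 694 in library 2) and Gpha2-low cells (259 and 265). Mixed cells, with a share of 0.4 to 0.8, numbered 161 and 164, and Krt12-dominant cells, with a share above 0.8, numbered 2304 and 1821. None of the 6 genes was used to define a class. The summed corneal markers (Krt12, Aldh3a1, Slurp1, Krt5, Pax6 and Tkt) were 34813 and 45580 UMIs per 1000000 (CPM) in Krt12-dominant cells and between 6399 and 7808 CPM in the Krt15-dominant classes. The summed limbal markers (Krt15, Krt14, Gpha2, Ifitm3 and Cd63) were 7737 and 4222 CPM in Krt12-dominant cells and between 16471 and 21914 CPM in the Krt15-dominant classes. Krt12, Krt15 and Gpha2 stand in these lists and also define the classes. The summed conjunctival markers (Krt13, Krt4, Krt19, Krt8 and Muc5ac) were 1627 and 3810 CPM in Gpha2-low cells, 630 and 1259 CPM in Gpha2+ cells, and 112 and 109 CPM in Krt12-dominant cells, with Muc5ac at 0 in all of them. The 6 immune markers summed to at most 54.5 CPM in any class. Keratocyte, melanocyte and endothelial markers summed to at most 7.53 CPM, and Kera, Col1a1, Col1a2, Tyrp1, Cdh5 and Kdr were at 0 in every class.

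Cebpd was the gene of the set with the largest difference between classes, and it was high in Krt15-dominant cells of both libraries. Its level was 87.4 and 90.5 CPM in Gpha2+ cells, 73.6 and 106.8 CPM in Gpha2-low cells, and 39.8 and 87.7 CPM in mixed cells (library 1 and library 2 in turn). In Krt12-dominant cells it was 22.2 and 26.8 CPM, below every other class in either library. In the plot of levels by class, the exact Poisson intervals of these 2 Krt12-dominant values, 19.8 to 24.9 and 23.9 to 29.9 CPM, lie below those of the Krt15-dominant classes. Intervals of this kind cover counting error only.

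**Figure D1:**
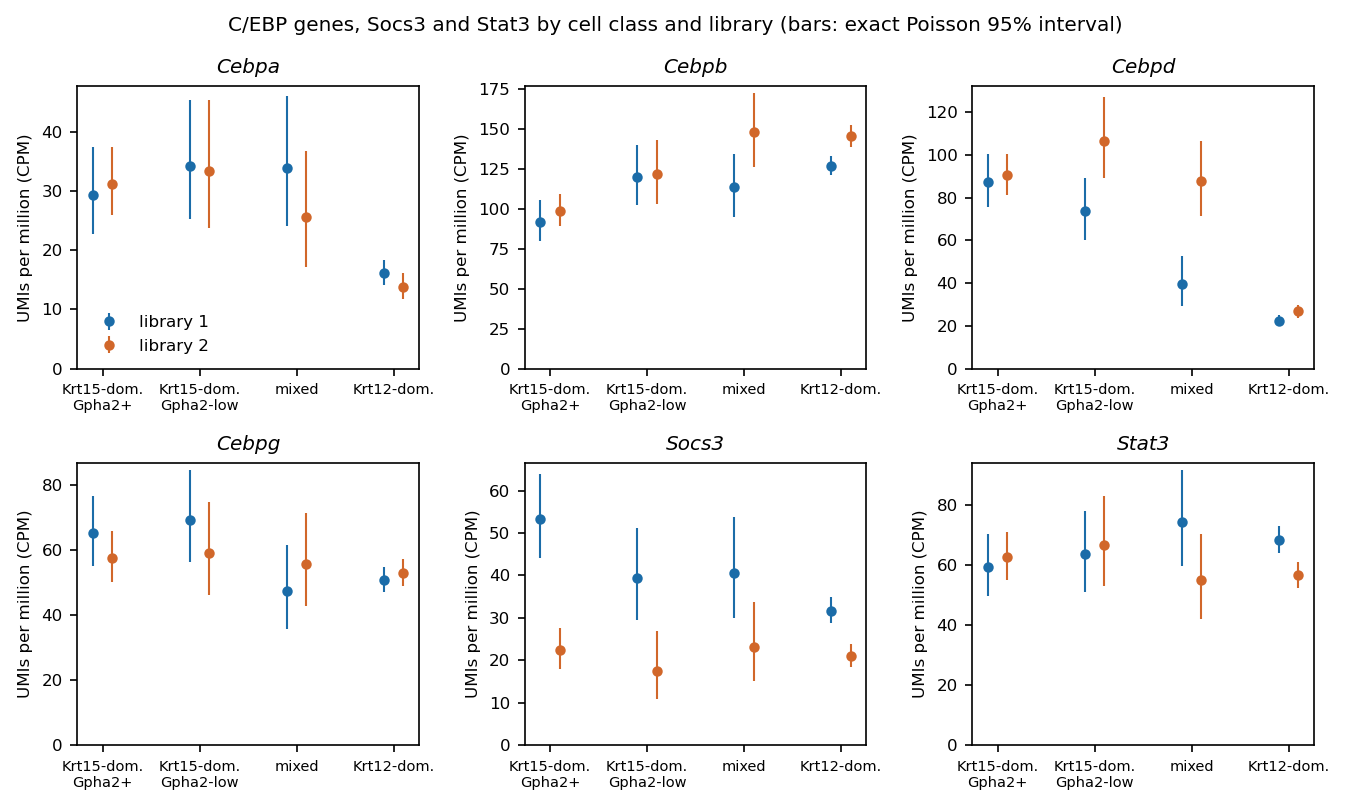
Levels in CPM of the 6 genes (y axes, linear, from 0) in the 4 cell classes (x axes), with library 1 in blue and library 2 in orange and bars for exact Poisson 95% intervals. Cebpd and Cebpa are lowest in Krt12-dominant cells of both libraries, Cebpb is lowest in Gpha2+ cells of both, and Socs3 differs between the libraries within classes.

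The classes were compared with edgeR's quasi-likelihood test on the UMI sums of each library and class, with library as a block and Benjamini-Hochberg adjustment over all 9979 genes tested. The block takes up the overall difference of the 2 libraries, which leaves their disagreement about class differences as the spread. edgeR estimates this spread for each gene with help from all genes tested. A p-value is therefore not a measure of how well the 2 libraries agree for that gene alone. Nothing in the labels says whether the libraries came from separate mice. All 6 genes passed the filter on low counts. Between Gpha2+ and Krt12-dominant cells, 3 of the 6 passed the threshold of 0.05, where 30.3% of all genes did. Cebpd and Cebpa were higher in Gpha2+ cells, as were 15.6% of all genes, and Cebpb was lower, as were 14.7%. With so many genes past the threshold, the number of members called says little, and the sizes carry the comparison.

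Cebpd was 3.51-fold higher in Gpha2+ than in Krt12-dominant cells, a log2 difference of 1.81 (SE 0.16, adjusted p = 1.68e-07), with 1.92 in library 1 and 1.76 in library 2. It was 3.58-fold higher in Gpha2-low cells, a log2 difference of 1.84 (SE 0.19), with 1.69 and 1.99 in the libraries. In mixed cells the log2 difference was 1.34 (SE 0.21, adjusted p = 0.000417), and the libraries stood apart, with 0.80 in library 1 and 1.72 in library 2. Shares of cells were compared at a matched depth of 1900 UMIs per cell. There, a Cebpd UMI was found in 15.4% of Gpha2+ cells (exact binomial 95% interval 13.3 to 17.7%), 15.2% of Gpha2-low cells (11.99 to 18.8%), 10.97% of mixed cells (7.72 to 14.99%) and 4.38% of Krt12-dominant cells (3.75 to 5.10%). Without matching the depth these shares were 32.1%, 26.3%, 26.5% and 12.1%. Most cells with Cebpd carried few copies, and the highest count in any cell was 13 UMIs, in a mixed cell.

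Cebpa was also higher on the Krt15 side, at a lower level. It stood at 29.4 and 31.3 CPM in Gpha2+ cells, 34.3 and 33.4 CPM in Gpha2-low cells, 33.9 and 25.7 CPM in mixed cells, and 16.2 and 13.9 CPM in Krt12-dominant cells. Every value outside the Krt12-dominant class lay above both values inside it. Against Krt12-dominant cells it was 2.00-fold higher in Gpha2+ cells (log2 difference 1.00, SE 0.17, adjusted p = 2.28e-05) and 2.20-fold higher in Gpha2-low cells (log2 difference 1.14, SE 0.20). In mixed cells the log2 difference was 0.97 (SE 0.22, adjusted p = 0.00338), nearly the size seen in the Krt15-dominant classes. The mixed value of Cebpa missed the threshold in 3 of 10 alternatives. Among mixed cells, Cebpa and Cebpd made up the 2 of 6 genes that passed, where 7.11% of all genes did, 4.39% being higher and 2.73% lower. Between Gpha2-low and Krt12-dominant cells the same 2 passed, where 26.8% of all genes did, 14% being higher and 12.8% lower. Without the library block neither mixed value passed (adjusted p = 0.0786 for Cebpa and 0.104 for Cebpd). Mixed cells had medians of 6431 and 5965 UMIs, against 5784.5 and 6375 in Krt12-dominant cells. After removal of the cells with the highest doublet scores, Cebpa and Cebpd of mixed cells still passed. The doublet caller marked only 5 of all kept cells, so these scores may miss doublets among mixed cells.

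Cebpb went the other way. It stood at 91.9 and 98.8 CPM in Gpha2+ cells, 120.0 and 121.8 CPM in Gpha2-low cells, 113.4 and 147.9 CPM in mixed cells, and 126.9 and 145.4 CPM in Krt12-dominant cells. Both Gpha2+ values lay below all 6 others. Against Krt12-dominant cells Cebpb was lower in Gpha2+ cells by a log2 difference of -0.55 (SE 0.10, adjusted p = 9.31e-05), with -0.52 and -0.56 in the libraries, so Gpha2+ cells held 0.68 times the Krt12-dominant level. In Gpha2-low cells the log2 difference was -0.19 (SE 0.11, adjusted p = 0.221) and did not pass. A Cebpb UMI was found at matched depth in 15.1% of Gpha2+ cells (12.97 to 17.3%) and 22.0% of Krt12-dominant cells (20.7 to 23.4%), with 20.7% in Gpha2-low cells and 20.3% in mixed cells.

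Cebpg, the dimer partner, and Stat3 showed no difference between classes that passed the test. Cebpg lay between 47.4 and 69.3 CPM over all 8 sums. Its values in the Krt15-dominant classes, 57.6 CPM or more, all lay above those in mixed and Krt12-dominant cells, 55.8 CPM or less. Stat3 lay between 54.9 and 74.5 CPM, with the classes overlapping. Between Gpha2-low and Krt12-dominant cells the log2 difference of Cebpg was 0.29 (2 SE either side, -0.004 to 0.58; adjusted p = 0.153 in edgeR). Between Gpha2+ and Krt12-dominant cells the log2 difference of Cebpg was 0.20 (2 SE either side, -0.05 to 0.45; adjusted p = 0.256). That of Stat3 was -0.05 (-0.31 to 0.21; adjusted p = 0.815).

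Socs3 differed more between the libraries than between the classes. Its level in Gpha2+, Gpha2-low, mixed and Krt12-dominant cells was 53.4, 39.3, 40.6 and 31.7 CPM in library 1 and 22.4, 17.5, 23.0 and 21.04 CPM in library 2. All library 1 values lay above all library 2 values. Over all kept cells it was 35.4 CPM (95% interval 32.8 to 38.2) in library 1 and 21.4 CPM (19.3 to 23.7) in library 2. The log2 difference between Gpha2+ and Krt12-dominant cells was 0.41 (SE 0.16, adjusted p = 0.0521), which missed the threshold, with 0.70 in library 1 and 0.09 in library 2. The 10 immediate early genes, which include Fos and Jun and which cells switch on soon after a stimulus, also summed higher in library 1, at 6192 CPM against 2637 CPM over all kept cells. Their part in the Socs3 difference between libraries was not tested, since each library is 1 sample. Among cells with low immediate early RNA, the log2 difference of Socs3 between the classes was 0.47 (adjusted p = 0.1995).

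Of the other genes over all kept cells, Cebpd also differed between the libraries beyond counting error, at 34.9 CPM (32.3 to 37.7) in library 1 and 50.0 CPM (46.8 to 53.4) in library 2. In each of the 4 classes it was higher in library 2 than in library 1, by the least in Gpha2+ cells and by the most in mixed cells, where the intervals are separate. Gpha2+ cells made up 12.7% of library 1 and 23.1% of library 2, and the part of this in the difference was not tested. Cebpa (20.2 and 19.8 CPM) and Cebpg (53.6 and 54.4 CPM) had overlapping intervals. Cebpb was 121.6 and 133.7 CPM and Stat3 was 67.3 and 58.5 CPM, each with intervals that do not overlap. The share of all genes with separate intervals between the libraries was not computed. These differences therefore cannot be called particular to the genes of the set. No test is possible between 1 sample and 1 sample.

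**Figure D2:**
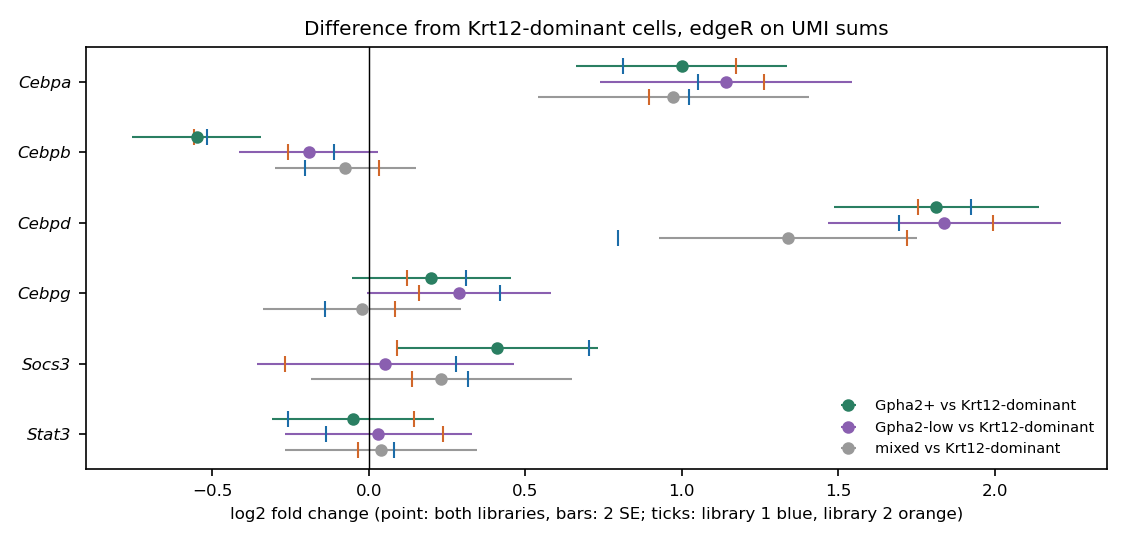
Log2 fold change of each gene (x axis) in Gpha2+, Gpha2-low and mixed cells against Krt12-dominant cells from edgeR, with bars for 2 SE and ticks for each library alone. Cebpd and Cebpa lie to the right of 0 in all 3 comparisons, Cebpb of Gpha2+ cells lies to the left at -0.55, and the ticks of Cebpd in mixed cells lie at 0.80 and 1.72.

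Between Gpha2+ and Gpha2-low cells, both Krt15-dominant, none of the 6 genes passed the threshold in edgeR, where 4.43% of all genes did, 1.76% being higher and 2.67% lower. Of the 6, Cebpb alone had an unadjusted p under 0.05 (0.00633), as did 1586 of all 9979 genes tested, so this count says little. Cebpb had a log2 difference of -0.36 (SE 0.12, adjusted p = 0.100), lower in Gpha2+ cells in both libraries. DESeq2 called none of the 6 either. Conjunctival markers summed higher in Gpha2-low cells, as given above, and their part in the levels of that class was not tested.

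Along the Krt12 share, cut into 10 equal bins, the 2 libraries parted in where Cebpd came down. In library 1 it was 86.8, 93.1 and 83.7 CPM in the lowest 3 bins and 24.9 CPM in the bin from 0.3 to 0.4, which rests on 8 UMIs in 52 cells. It then lay between 19.4 and 56.4 CPM. In library 2 it stayed between 71.0 and 124.5 CPM up to a share of 0.8, then was 47.3 CPM between 0.8 and 0.9 and 25.2 CPM above 0.9. Bins between 0.2 and 0.8 held 27 to 64 cells each, so their intervals are wide. Cebpa was lowest in the last bin in library 2 (13.5 CPM) and second lowest there in library 1 (15.4 CPM, against 14.7 CPM between 0.6 and 0.7). Cebpb was lowest in the first bin in library 2 (99.2 CPM) and, in library 1, at 96.9 CPM there and 91.1 CPM between 0.4 and 0.5. Socs3 had its highest bin at 75.2 CPM between 0.1 and 0.2 in library 1 and at 58.5 CPM between 0.2 and 0.3 in library 2.

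**Figure D3:**
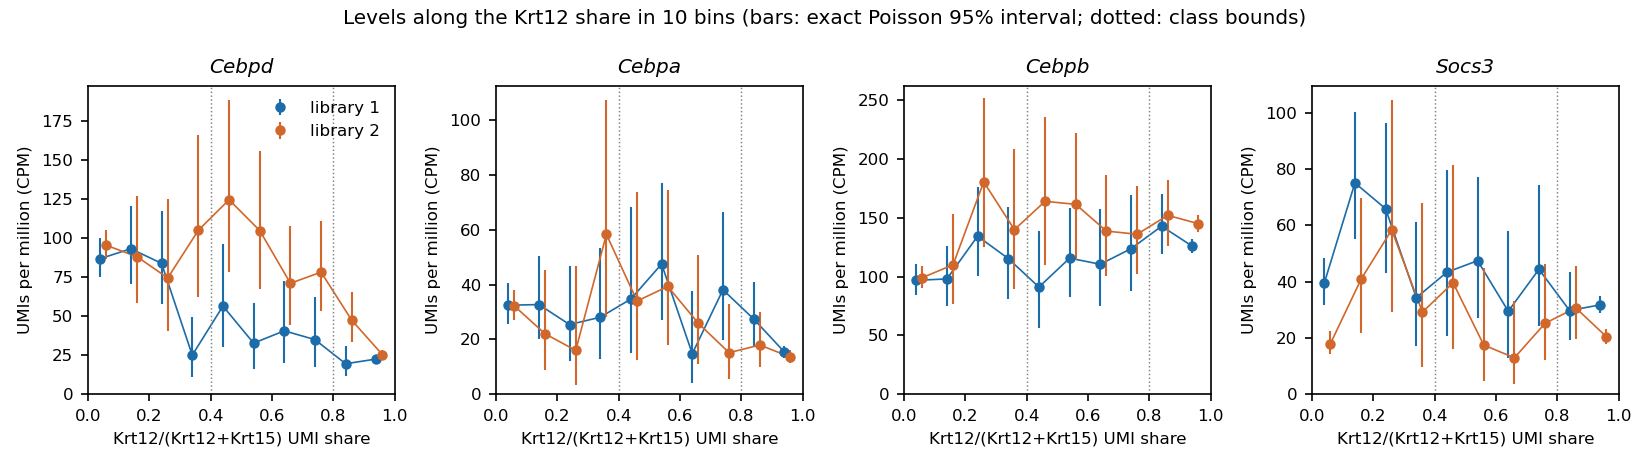
Cebpd, Cebpa, Cebpb and Socs3 in CPM (y axes, from 0) along the Krt12 share (x axes) in 10 bins, by library, with exact Poisson 95% intervals and dotted lines at the class bounds of 0.4 and 0.8. Cebpd is already at 24.9 CPM between 0.3 and 0.4 in library 1 and reaches 25.2 CPM only above 0.9 in library 2.

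The next comparison asked whether the genes differ among these cycling cells with Mki67, the proliferation gene that encodes Ki-67. Each cell was thinned to 1900 UMIs, which left out 616 shallower cells and kept 5572. A Mki67 UMI was then found in 1953 of 2884 cells of library 1 and 1891 of 2688 of library 2. The share with Mki67 was 67.9% and 73.1% of Gpha2+ cells, 63.5% and 67.3% of Gpha2-low cells, 67.1% and 71.7% of mixed cells, and 68.5% and 69.5% of Krt12-dominant cells. A cell without a Mki67 UMI at this depth may still express the gene.

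Cebpd was lower in cells with Mki67, at 37.5 CPM against 50.9 CPM in library 1 and 45.1 CPM against 78.6 CPM in library 2. It was the 1 gene of 6 that passed in edgeR, where 5.14% of all 10235 genes tested did, 2.37% being higher and 2.77% lower. The log2 difference was -0.69 (SE 0.15, adjusted p = 0.000147), with -0.48 and -0.84 in the libraries, so cells with Mki67 held 0.62 times the level of the rest. The call does not hold in every fit. With DESeq2 the value was -0.67 but the adjusted p was 0.929, without the library block it was -0.69 (adjusted p = 0.532), and after thinning to 3000 UMIs it was -0.42 (adjusted p = 0.0855). With 1 sum per library, class and state it was -0.70 (adjusted p = 0.0243).

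Within classes, the lower Cebpd level was seen in Krt12-dominant cells of both libraries. There it was 16.8 CPM with Mki67 against 36.5 CPM without in library 1, and 19.4 CPM against 41.1 CPM in library 2, and both pairs of intervals are separate. A fit on Krt12-dominant cells alone gave -1.15 (adjusted p = 0.000257). In Krt15-dominant cells the libraries differed, with 102.5 CPM against 106.7 CPM in library 1 and 82.6 CPM against 138.4 CPM in library 2. That fit gave -0.48 (adjusted p = 0.381). Whether the difference is larger in Krt12-dominant cells was not tested. Gpha2+ cells of library 2, at 76.6 CPM against 167.7 CPM, had the clearest pair, while those of library 1 had 106.8 CPM with Mki67 and 86.3 CPM without.

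**Figure D4:**
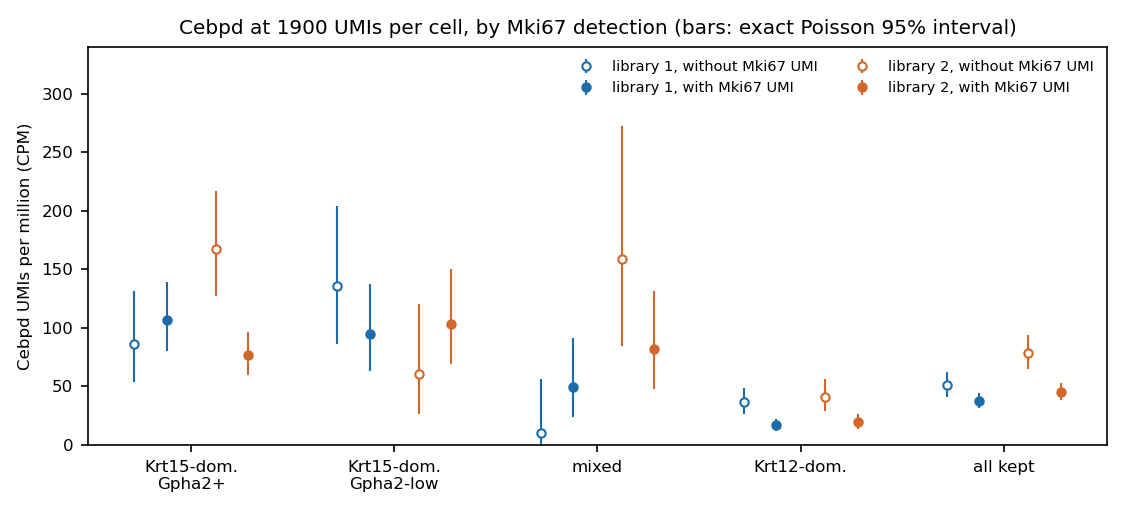
Cebpd level in CPM at 1900 UMIs per cell (y axis, from 0) in cells without (open) and with (filled) a Mki67 UMI, by class and library, with exact Poisson 95% intervals. In Krt12-dominant cells both filled points lie below the open ones (16.8 and 19.4 against 36.5 and 41.1 CPM), and in the other classes the order differs between libraries.

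The other 5 genes had adjusted p-values of at least 0.969 in this comparison. Cebpb was 122.1 CPM with Mki67 and 129.5 CPM without in library 1, and 133.6 and 115.6 CPM in library 2. Socs3 was 33.1 and 41.3 CPM in library 1 and 25.6 and 15.8 CPM in library 2, so its order also turned between the libraries. Among the CDK inhibitors, proteins that brake the cell cycle, 3 of 7 tested were higher in cells with Mki67: Cdkn2d (log2 difference 0.76), Cdkn2c (0.74) and Cdkn1b (0.54). Cdkn1a, the p21 gene, was lower in cells with Mki67 (-0.56, SE 0.12), the direction that Cebpd showed. None of these 4 passed with DESeq2 or without the library block.

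Socs3 was then used to split the Krt12-dominant cells at 1900 UMIs per cell, into 108 and 63 cells with a Socs3 UMI and 1950 and 1574 without. None of the other 5 genes passed in edgeR, where 0.198% of genes did, Socs3 included, 0.088% being higher and 0.11% lower. Cebpd was at 43.9 CPM against 21.9 CPM in library 1 and 50.1 CPM against 25.1 CPM in library 2. Its log2 difference was 0.98 (SE 0.46), with an unadjusted p of 0.0321 and an adjusted p of 0.987. These levels rest on 9 and 6 Cebpd UMIs. Stat3 was 92.6 CPM against 58.0 CPM in library 1 and 41.8 CPM against 47.8 CPM in library 2, so its order turned. Cebpa had 0 UMIs in the Socs3 cells of both libraries, against 58 and 40 UMIs in the rest. A count of 0 allows up to 14.6 CPM in library 1, 25.1 CPM in library 2 and 9.23 CPM over both (3 counts), and the rest held 15.7, 13.4 and 14.6 CPM. Per library the difference in Cebpa is therefore hardly detectable at this depth. Over both libraries the limit of 9.23 CPM lay below the 14.6 CPM of the rest. In edgeR Cebpa had an unadjusted p of 0.00652 and an adjusted p of 0.754, and did not pass.

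Apart from Socs3 itself, 17 of 9095 genes passed in this split, 7 higher and 10 lower, and those named here were chosen after their values were seen. Krt14, the basal keratin, was higher with Socs3 by 0.60 on the log2 scale, the stress keratin Krt16 by 0.69, the interferon-induced Ifitm3 by 0.48, the fatty acid carrier Fabp5 by 0.49, and Sbno2, known from interleukin 10 signalling, by 1.32. Slurp1 (-0.69), Lypd2 (-0.33) and Krt12 (-0.28), all high in differentiated corneal cells, were lower, as was Gm42418 (-0.84), a gene model over ribosomal RNA. The wound keratin Krt6b was lower too, at normalised levels of 116.4 CPM with Socs3 against 147.7 CPM without in library 1 and 32.1 CPM against 206.8 CPM in library 2. The other genes were Urah (higher) and Evpl, Calml3, Dapl1, Asprv1 and Psca (lower), the last 2 with 0 UMIs in cells with Socs3. Without Socs3, Asprv1 stood at normalised levels of 15.5 CPM in library 1 and 229.4 CPM in library 2, and Psca at 11.8 and 162.4 CPM. A count of 0 allows up to 14.6 CPM in library 1. Both differences therefore rest mainly on library 2, with 63 cells with Socs3. Fos was higher by 0.40, with 0.10 in library 1 and 0.93 in library 2. The count is fragile. Without the library block edgeR called 0 other genes (334 genes, Socs3 included, had an unadjusted p under 0.05), and DESeq2 called 2. Fos and Sbno2 passed in none of 9 alternatives, Krt16 and Ifitm3 in 1, Lypd2 in 2 and Fabp5 in 3. Krt12 passed in 4, Krt14 and Slurp1 in 5 and Gm42418 in 7.

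A Fos UMI split the Krt12-dominant cells in the same manner. Socs3 was 35.3 CPM with Fos (95% interval 28.9 to 42.7) and 15.4 CPM without (8.4 to 25.9) in library 1, and 31.2 CPM (23.0 to 41.4) against 13.4 CPM (8.3 to 20.4) in library 2. The intervals are separate in both libraries. Fos was detected in 1581 of these cells in library 1 and 810 in library 2, and the levels without Fos rest on 14 and 21 Socs3 UMIs. Cebpd was nearly level across Fos, at 23.0 CPM with and 23.2 CPM without in library 1 and 26.6 and 25.5 CPM in library 2. These values are a description, with no test.

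Krt16, a keratin induced in stressed and healing epithelium, was used for a further split of these cells. In Krt12-dominant cells with a Krt16 UMI (239 and 75 cells) Cebpd was 46.2 CPM (28.6 to 70.7) against 20.0 CPM (15.5 to 25.3) in library 1, and 63.2 CPM (28.9 to 119.9) against 24.3 CPM (19.0 to 30.6) in library 2, with intervals separate in library 1 only. Socs3 was 39.6 CPM with Krt16 against 29.5 CPM without in library 1, and 56.1 CPM against 20.6 CPM in library 2, with overlapping intervals. Cebpb was 165.2 CPM against 126.4 CPM in library 1 and 238.6 CPM against 138.8 CPM in library 2, with intervals that are separate in library 2 only. With S100a9, an inflammatory calcium-binding protein gene, Cebpd was 44.3 CPM against 19.1 CPM in library 1, where 321 cells had it. In library 2 only 21 cells had it, with 1 Cebpd UMI. With the interferon-induced Ifit3, found in 34 and 128 cells, Cebpd was 15.5 and 45.2 CPM, against 23.1 and 24.4 CPM without, with overlapping intervals.

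**Figure D5:**
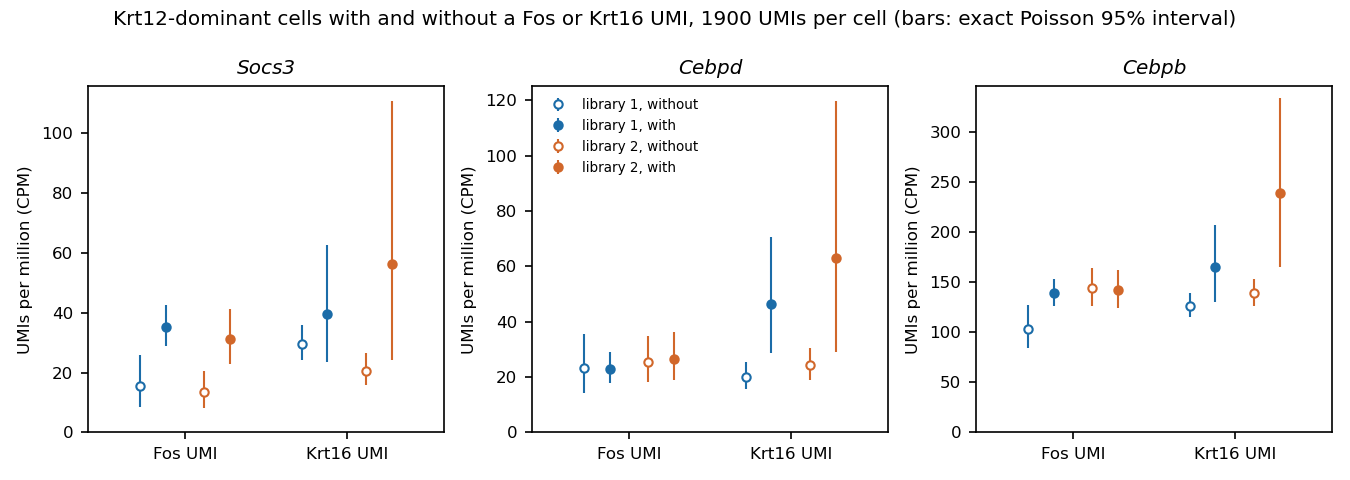
Socs3, Cebpd and Cebpb in CPM (y axes, from 0) in Krt12-dominant cells without (open) and with (filled) a Fos or a Krt16 UMI at 1900 UMIs per cell, by library, with exact Poisson 95% intervals. Socs3 is higher with Fos in both libraries (35.3 and 31.2 against 15.4 and 13.4 CPM), while Cebpd is level across Fos and higher with Krt16.

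The pathway around STAT3 was read from lists of known genes, with the test between Gpha2+ and Krt12-dominant cells. Over all lists, 32 of the 76 genes tested passed (42.1%), 10 higher in Gpha2+ cells and 22 lower. Of all 9979 genes tested, 30.3% passed, 15.6% being higher and 14.7% lower. The counts per list given from here on are small and stand beside these shares. Of the 11 cytokine ligands of the gp130 and related receptors, 1 had counts enough to be tested and did not pass. Of 13 receptors and kinases, 10 were tested, 3 were higher in Gpha2+ cells and 2 lower. Lifr, the receptor of leukaemia inhibitory factor, was higher by 1.06 on the log2 scale (SE 0.13), and Il6st, which encodes gp130, by 0.44 (SE 0.15). Il6st passed in 6 of 10 alternatives, and Il10rb, below the level set for naming genes, was the other. Jak1, the kinase, was lower by -1.08 (SE 0.14) and Osmr, the oncostatin M receptor, by -0.95 (SE 0.17). Their normalised levels were 108.4 and 73.2 CPM against 179.1 and 195.2 CPM for Jak1, and 53.5 and 72.0 CPM against 26.1 and 34.3 CPM for Lifr. The list thus split, and its median log2 difference was -0.24 beside -0.01 over all genes tested.

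Downstream, the transcription factor gene Stat6 was higher by 0.50 on the log2 scale and passed in 6 of 10 alternatives. Of 13 inhibitors of the pathway besides Socs3, none was higher and 3 were lower, the phosphatase gene Ptpn1 by -0.60 and, at low levels, Cish and Socs7. Of 13 tested genes known as STAT3 targets, 2 were higher and 3 lower. Lcn2, the iron-scavenging lipocalin of inflamed epithelia, was higher by 3.80 (SE 0.26), at 268.1 and 127.5 CPM against 19.6 and 8.8 CPM. Pim3 was higher by 0.42, and Junb (-1.01), Pim1 (-0.82) and Ccnd1 (-0.45) were lower. The medians of the inhibitor and target lists were -0.13 and 0.09.

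Of 8 NF-kB feedback genes, 4 were higher in Gpha2+ cells and 1 lower, with a median of 0.85. The lower gene was Nfkbiz (-1.06, SE 0.12), which encodes an inflammatory cofactor. The 4 higher genes, Icam1, Tnfaip3, Nfkb2 and Relb, lay below the level set for naming and are named after their values were seen. Of 10 immediate early genes, 5 were lower and none higher, with a median of -0.97, led by Fos (-1.81), Zfp36 (-1.64) and Fosb (-1.42). In cells with low immediate early RNA, which are chosen by the sum of this list, Fos was at -0.97 and Zfp36 at -0.92 and neither passed, while Fosb (-0.46) passed. Cebpd (1.57), Cebpa (0.98) and Cebpb (-0.42) passed in these cells. Of 8 glucocorticoid-responsive genes tested, 5 were lower and none higher, among them Tsc22d3 (-0.82), Sgk1 (-0.55) and the metallothionein gene Mt2 (-0.29, passed in 3 of 10 alternatives), with a median of -0.37. Of 7 CDK inhibitors, 2 were lower, Cdkn1a by -0.91 and, at low level, Cdkn2a. The 2 other C/EBP family genes with enough counts did not pass. Without the library block, only Lifr, Jak1, Osmr, Lcn2 and Pim1 still passed among the list genes given with values for this comparison.

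Between Gpha2+ and Gpha2-low cells, 6 of the 76 list genes tested passed (7.89%), beside 4.43% of all genes. Il6st was higher in Gpha2+ cells by 0.73 on the log2 scale (SE 0.21, adjusted p = 0.0342), a call kept in 4 of 10 alternatives, and Icam1 was higher as well. Pim1, Junb, Cdkn1a and Cdkn2b were lower. With the Mki67 split, 5 of the 77 list genes tested passed (6.49%), beside 5.14% of all genes. Beyond the CDK inhibitors, Fos was the 1 list gene to pass (0.22), a call kept in 3 of 10 alternatives. None of the receptors, STATs, inhibitors or STAT3 targets passed. With the Socs3 split Fos alone passed.

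The genes closest in pattern were sought over the 8 sums of library and class, with each library centred on its own mean, among 5833 genes of at least 20 CPM. With so few points and so many genes, high correlations arise by selection, so they are given as a description. Cebpd lay closest to Fbxl5 (Pearson r 0.993), Txnrd1 (0.982), a thioredoxin reductase gene, and Sftpd (0.981), a surfactant protein gene. Cebpa lay closest to Il33 (0.994), an alarmin cytokine gene at 21.3 to 41.3 CPM in the Krt15-dominant and mixed classes and 3.9 and 2.4 CPM in Krt12-dominant cells, then Kank1 and Vars. Cebpb lay closest to the kinase gene Pim1 (0.990), Tet3 and Actr10. Stat3 lay closest to Herc1 (0.986), Socs3 to Rbbp7 (0.976) and Cebpg to Ccser2 (0.970), and none of the 6 was among the 3 nearest of another.

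Cebpb, Cebpd, Socs3 and Stat3 are well known from immune cells, so these were counted too. Of the kept cells, 14 had at least 2 UMIs of Ptprc, Tyrobp and Cd3e together, 1 of them within a class, with a median of 2226.5 UMIs against 5790.0 in the epithelial cells. Cebpa, Cebpb, Cebpd and Socs3 were each found in 1 of the 14, Cebpg in none and Stat3 in 4. The share of cells with a UMI without matched depth was 46.4% for Cebpb and 17.7% for Cebpd in epithelial cells.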

How the data were processed

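Per the labels' protocols, corneal epithelium was peeled after Dispase, dissociated with trypsin and sorted, and libraries used 10x Chromium 3' v3 chemistry. The deposited matrix holds whole-number UMI counts per gene and barcode. The submitters' processing notes name Cell Ranger 3.1.0, Seurat 5.0.0 and GRCm38/mm10, with no role or order. How the 2 libraries were joined is not given in the sources used here. The 6 genes, the lists and the tests were chosen with earlier results of these data known.

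Kept cells had at least 500 genes and under 20% mitochondrial UMIs (475 barcodes had fewer genes, and 89 further ones had more). Scrublet (scanpy 1.11.5) marked 5 cells (0.0808%), so the caller was not judged to have worked and doublets may remain; removing the 3% highest scores was an alternative. Counts were summed by library and class, or by library and detection after random thinning to 1900 UMIs, and tested with edgeR 4.0.16 in R 4.3.3 (quasi-likelihood, robust, TMM, filterByExpr, library as a block because sums of 1 library share a sample). P-values were adjusted over all genes. The SE is the log2 difference divided by the square root of F. DESeq2 1.42.0 was an alternative. CPM are UMIs of the gene per 1000000 UMIs of the same cells; normalised CPM use TMM. Limits for counts of 0 use 3 counts, and intervals are exact at 95% (counting error only). The fits were also run on counts simulated from a common profile with known changes added and no disagreement between libraries. That run does not show how the fits behave where the 2 libraries disagree.

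Alternatives were no library block, no filter, each library alone, under 10% mitochondrial UMIs, Krt12 and Krt15 UMIs of at least 10, Gpha2 split at 1, share bounds of 0.3 and 0.9, thinning of the classes, thinning to 3000, and single classes or class blocks for the splits. Cells with immediate early RNA under the median were added after seeing the data. From 10 lists of pathway genes, up to 3 genes per list and direction past the threshold with at least 20 CPM are named; the 3 most alike genes are by Pearson r of log2(CPM + 1). The 7 lists of cell type markers were fixed with them. A list gene past the threshold is not reported here.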

Additional observations from a re-analysis of the deposited data

How the results depend on the processing

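Across 588 alternative values of the printed results, 433 were kept and 126 held direction but missed the threshold. Another 1 newly passed, 23 moved and 5 turned sign. Kept means the same direction and side of the threshold or, for single libraries, which have no p-value, the same direction and a similar size. Moved was used for single libraries only, where the direction held but the size differed more. Cebpa, Cebpb and Cebpd between Gpha2+ and Krt12-dominant cells passed in all 10 alternatives, with Cebpd between 1.57 and 1.99. Each comparison rests on 2 libraries, and the Mki67 and Socs3 splits leave 1 residual degree of freedom. Depth limits the splits by detection, where Cebpd in cells with Socs3 rests on 9 and 6 UMIs. The cause of each change below was not tested.

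In mixed cells the log2 difference of Cebpa was 0.97 (adjusted p = 0.0786) without the library block, 1.32 (0.0542) after thinning and 0.80 (0.116) in cells with low immediate early RNA; that of Cebpd was 1.36 (0.104) without the block, and 0.80 to 1.72 in single libraries. Socs3 in Gpha2+ cells was 0.44 (0.0444) without the highest Scrublet scores and 0.090 to 0.70 in single libraries, and Stat3 was -0.26 to 0.14. Cebpd by Mki67 was -0.69 (0.532) without the block, -0.67 (0.929) with DESeq2, -0.42 (0.0855) at 3000 UMIs and -0.48 (0.381) in Krt15-dominant cells; Fos by Mki67 turned to -0.17 in cells with low immediate early RNA. In the Socs3 split Stat3 was -0.22 to 0.62 in single libraries, and in Krt15-dominant cells Krt12 turned to 0.47 and Krt16 to -0.19, neither past the threshold.

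Genes called between Gpha2+ and Krt12-dominant cells numbered 3023, and 1396 without the library block, 1731 with DESeq2 and 1706 after thinning. For Gpha2-low cells they numbered 2679, and 1268, 1552, 1258 and, in cells with low immediate early RNA, 1735. For mixed cells they numbered 710, and 104, 382, 244 and 335. Between Gpha2+ and Gpha2-low cells they numbered 442, and 11, 198, 169 and 251. By Mki67 they numbered 526, and 2 without the block, 72 with DESeq2, 326 in Krt12-dominant cells, 161 in Krt15-dominant cells and 270 with low immediate early RNA. By Socs3 they numbered 17, and 0 without the block in edgeR (334 at an unadjusted p under 0.05, Socs3 included), 11 without a filter, 2 with DESeq2, 6 under 10% mitochondrial UMIs, 6 without the highest Scrublet scores, 6 in Krt15-dominant cells and 7 with class blocks. The replicate numbers of the labels could not be linked to the libraries, so no paired analysis by number was possible because the barcodes carry none.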
